A study of Homo sapiens with 12 samples.

Results

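The miR-26 family was followed over the 4 groups of a SOX2 knock-down experiment in a pair of human embryonal carcinoma cell (hECC) lines, 2102Ep, which is nullipotent, and NTera-2, which is pluripotent. Its members were taken as every assay of the deposited dCt table whose number after miR- is 26. This rule uses no measured value and found 5 of 501 assays, namely hsa-miR-26a and hsa-miR-26b and the minor strands hsa-miR-26a-1#, hsa-miR-26a-2# and hsa-miR-26b#, where the prefix hsa for human is left out from here on and # is the array's mark for the strand of a precursor that is usually less abundant. Cells of each line were transfected for 6 h with an siRNA against SOX2 (siSOX2) or with the non-targeting Silencer Select Negative Control #1 (NC), and RNA was taken 72 h later. Each of the 4 groups, NC and siSOX2 of either line, held 3 samples labelled as biological replicates. All samples therefore received an siRNA and a lipid reagent, which was Lipofectamine 2000 in 2102Ep and Lipofectamine RNAiMAX in NTera-2, so that line, reagent and siRNA dose cannot be told apart in any comparison of the lines. The p-values measure the spread between samples so labelled. SOX2 itself is no microRNA and its level was not analysed here.

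A miRNA precursor is a hairpin that is cut into a duplex, of which 1 strand is usually kept by Argonaute to silence mRNAs that pair with its seed, while the minor strand is mostly discarded. MiR-26a comes from a pair of loci that yield the same main strand but different minor strands, and miR-26b comes from a single locus. All 3 hairpins lie in genes of the CTDSP family of small C-terminal domain phosphatases, and are known to be made together with their hosts. The family is known to target EZH2, the histone methyltransferase of Polycomb repressive complex 2, to be repressed by MYC, and to be plentiful in differentiated tissues.

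The sequences are shown because they tell which assays can share targets and which assay belongs to which locus. They are RefSeq mature sequences on GRCh38.p14, written 5′ to 3′ with the seed, bases 2 to 8, in capitals.
miR-26a: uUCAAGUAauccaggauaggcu
miR-26b: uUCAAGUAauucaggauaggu
miR-26a-1#: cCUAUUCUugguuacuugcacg
miR-26a-2#: cCUAUUCUugauuacuuguuuc
miR-26b#: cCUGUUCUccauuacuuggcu

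The main strands share the seed UCAAGUA and are identical at 19 of 21 compared positions, counted from 1 at the 5′ end, with the differences C11U and C21U from miR-26a to miR-26b. Both minor strands of miR-26a carry the seed CUAUUCU. They are identical at 17 of 22 positions, with G11A, C19U, A20U, C21U and G22C from miR-26a-1# to miR-26a-2#. The minor strand of miR-26b has another seed, CUGUUCU, through A4G. It is identical to miR-26a-1# at 14 of 21 positions. Whether an assay also reads its close relative was not tested. RefSeq lists miR-1297 and miR-4465 with the seed of the main strands, and neither was analysed here.

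The hairpin of MIR26A1, the source of miR-26a-1#, lies at chr3:37969404-37969480 on the plus strand, within the span of CTDSPL (chr3:37861880-37984469). MIR26A2, the source of miR-26a-2#, lies at chr12:57824609-57824692 on the minus strand within CTDSP2 (chr12:57819927-57846729). MIR26B lies at chr2:218402646-218402722 on the plus strand within CTDSP1 (chr2:218396351-218405941). The main strand miR-26a has the same letters at both of its loci, so its assay cannot say which of them a change comes from, whereas each minor strand assay belongs to 1 locus.

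MiRNA levels had been measured by pre-amplified TaqMan PCR on card A (290 assays, miR-26a and miR-26b among them) and card B (211 assays, with the 3 minor strands). Ct is the cycle at which the signal crosses a threshold and dCt is Ct less a constant per sample and card, so that low values stand for much RNA and a difference of 1 cycle corresponds to about 1 log2 unit. The 2102Ep samples gave a value for 420 to 431 assays and the NTera-2 samples for 449 to 451. The raw Ct of 2102Ep siSOX2 replicate 3 stood out of line with the assay names from row 106 on and was rebuilt from dCt. Values without that sample are given beside the results. MiR-26a, miR-26a-1#, miR-26b# and miR-26b were measured in all 12 samples. MiR-26a-2# was measured in all 6 NTera-2 samples and had no value in any 2102Ep sample. By raw Ct in the NC samples of 2102Ep, miR-26a was the 12th strongest of 263 assays on card A with a mean Ct of 18.8, and miR-26b was the 54th with 21.9. On card B, miR-26a-1# was the 65th of 164 with 23.6 and miR-26b# the 152nd with 27.9. The 7 card A assays looked at from the miR-302 and miR-371 clusters, markers of pluripotent cells, were measured in every sample. Other assays of the miR-302 cluster, such as miR-302d, were not ranked. In 2102Ep NC they ranked between 1st and 26th on card A, and in NTera-2 NC 5 of them ranked between 1st and 20th while miR-372 was 73rd and miR-371-3p 133rd of 254. Assays amplify with different efficiency, so such ranks are no ratio of molecules.

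After SOX2 knock-down in 2102Ep cells, miR-26a fell 1.73-fold and its minor strand miR-26a-1# fell 4.74-fold, while miR-26b#, the minor strand of miR-26b, rose 3.66-fold. The main strand miR-26b did not pass the test. In such bulk samples, fewer cells with a miRNA and less of it per cell cannot be told apart. Thus 3 of the 4 measured miR-26 assays changed at an adjusted p under 0.05, 2 of them lower and 1 higher, where 14.2% of the 431 assays tested did, 9.51% lower and 4.64% higher. The median log2 fold change of all assays was -0.0030.

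The dCt of miR-26a, the main strand of both of its loci, was 0.44, 0.64 and 0.78 in the NC samples and 1.39, 1.36 and 1.49 in the siSOX2 samples of 2102Ep. Every siSOX2 sample had less miR-26a than every NC sample. The log2 fold change was -0.79 (standard error 0.20, 95% interval -1.23 to -0.36, adjusted p = 0.023 from limma). With U6 alone as the reference this was -0.76 with an adjusted p of 0.065, and with RNU44 and RNU48 it was -0.44 with 0.24. Those 2 small nucleolar RNAs themselves went from a mean Ct of 16.9 to 17.7 (RNU44) and from 18.1 to 18.8 (RNU48) on card B between NC and siSOX2, and from 17.3 to 17.8 and 18.5 to 18.7 on card A. The change was -0.76 without siSOX2 replicate 3 (adjusted p = 0.059), -0.81 without siSOX2 replicate 1 (adjusted p = 0.059) and -0.70 without NC replicate 1 (adjusted p = 0.081).

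MiR-26a-1#, the minor strand of the MIR26A1 hairpin, had a dCt of -0.93, -1.01 and -0.89 in NC and of 1.22, 0.98 and 1.70 in siSOX2 samples. The NC samples lay close together at -0.94 ± 0.064 (SD, n = 3), and no sample of one group reached the other. The log2 fold change was -2.24 (standard error 0.32, 95% interval -2.95 to -1.53, adjusted p = 0.0024 from limma), the 4th largest fall of 431 assays. It was -2.04 without siSOX2 replicate 3 (adjusted p = 0.0087) and -1.69 when referred to RNU44 and RNU48 (adjusted p = 0.0019).

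MiR-26b#, the minor strand of the MIR26B hairpin, had a dCt of 2.83, 2.88 and 4.34 in NC and of 0.93, 1.40 and 2.10 in siSOX2 samples. NC replicate 3 stood below the other NC samples in level, and all siSOX2 samples were higher than all NC samples. The log2 fold change was 1.87 (standard error 0.43, 95% interval 0.91 to 2.83, adjusted p = 0.016 from limma), the 8th largest rise of 431. It was 1.38 without NC replicate 3 (adjusted p = 0.038), 1.60 without siSOX2 replicate 1 (adjusted p = 0.060) and 2.18 without siSOX2 replicate 3 (adjusted p = 0.015). Fitted on the 6 samples of 2102Ep alone, the adjusted p was 0.059.

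For miR-26b the dCt was 3.37, 3.73 and 3.84 in NC and 2.63, 3.71 and 2.98 in siSOX2 samples. Replicates 1 and 3 of siSOX2 were above all NC samples in level and replicate 2 lay among them. The log2 fold change of 0.55 (standard error 0.33, 95% interval -0.19 to 1.28, adjusted p = 0.36 from limma) did not pass, and the interval takes in both no change and a rise of over 2-fold. It was 0.31 without siSOX2 replicate 1, 0.85 without siSOX2 replicate 2 and 0.90 when referred to RNU44 and RNU48, and passed in none of these. Of the 4 assays, 3 had groups that did not overlap, where 32% of all assays tested did.

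**Figure D1:**
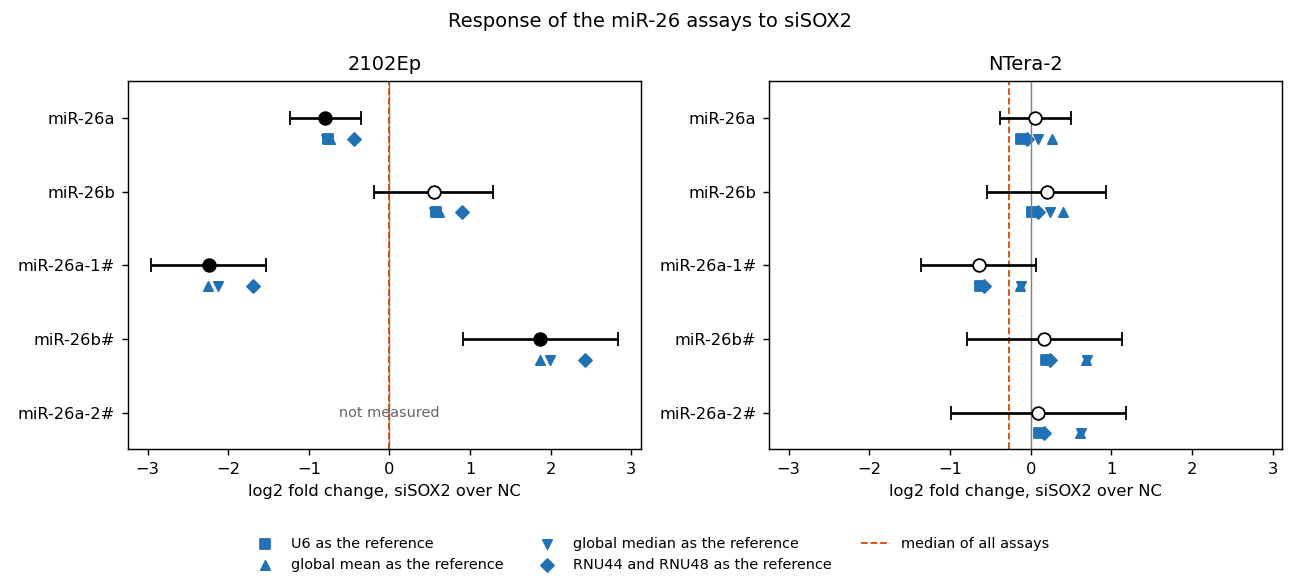
Log2 fold change of siSOX2 over NC (horizontal axis) for the miR-26 assays in 2102Ep (left) and NTera-2 (right), with 95% intervals from limma over 3 samples per group. Filled circles mark an adjusted p under 0.05, blue marks give the value with another reference and the dashed line is the median of all assays. In 2102Ep cells miR-26a and miR-26a-1# lie below 0 and miR-26b# above 0 with each reference that could be fitted, which for the minor strands leaves out U6, and in NTera-2 cells all intervals include 0, with miR-26a on the other side of 0 under U6 (-0.13) and under RNU44 and RNU48 (-0.05).

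In NTera-2 cells none of the 5 miR-26 assays passed the test, where 5.54% of the 451 assays tested did. This was 0 of 5 by limma and 0 at an unadjusted p under 0.05, where the first of them by p, miR-26a-1#, ranked 116th of 451. It was also 0 by the equal- and unequal-variance tests of each assay alone, which called 9 and 3 of all 451 assays. The median log2 fold change over all assays was -0.27 in this line. It was 0.05 with the global mean of each card as the reference, so the values below are to be read against that shift.

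The dCt of miR-26a was 4.69, 4.23 and 4.20 in NC and 4.44, 4.18 and 4.34 in siSOX2 samples of NTera-2. The groups overlapped, and the log2 fold change was 0.06 (95% interval -0.38 to 0.50, adjusted p = 0.92 from limma), with the sign turned under U6 (-0.13) and under RNU44 and RNU48 (-0.05). The 2102Ep estimate of -0.79 lies outside this interval, but its own 95% interval (-1.23 to -0.36) overlaps it. With RNU44 and RNU48 the 2102Ep value was -0.44. The difference between the lines is tested below.

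MiR-26a-1# had a dCt of 6.13, 4.87 and 5.91 in NC and of 6.17, 6.39 and 6.27 in siSOX2 samples. NC replicate 2 was far above the others in level, and replicates 1 and 3 lay just above the siSOX2 samples without overlap, as 29% of all assays did. The log2 fold change was -0.64 (standard error 0.32, 95% interval -1.35 to 0.07, adjusted p = 0.28 from limma). With the global mean as the reference it was -0.13, and it was -0.26 without NC replicate 2 and -0.89 without NC replicate 1, none of them past the threshold.

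The other minor strand of miR-26a, miR-26a-2# from MIR26A2, had a dCt of 9.28, 8.96 and 10.0 in NC and of 10.1, 8.91 and 8.98 in siSOX2 samples. These groups overlapped widely, with a log2 fold change of 0.10 (95% interval -0.99 to 1.18, adjusted p = 0.94 from limma), an interval that reaches about 2-fold in both directions. This is the only readout of the MIR26A2 locus by itself.

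For miR-26b# the dCt was 8.66, 8.10 and 8.89 in NC and 8.41, 8.42 and 8.32 in siSOX2 samples of NTera-2. The siSOX2 samples lay within the NC range, and the log2 fold change was 0.17 (95% interval -0.79 to 1.13, adjusted p = 0.88 from limma). MiR-26b had a dCt of 6.91, 5.94 and 6.43 in NC and of 6.51, 6.05 and 6.12 in siSOX2 samples, again within the NC range, with a log2 fold change of 0.20 (95% interval -0.54 to 0.94, adjusted p = 0.82 from limma).

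Whether the response differed between the lines was tested as the difference of the log2 fold changes, NTera-2 minus 2102Ep. It was 0.85 for miR-26a (95% interval 0.23 to 1.47, adjusted p = 0.099 from limma), 1.60 for miR-26a-1# (0.59 to 2.61, adjusted p = 0.078) and -1.70 for miR-26b# (-3.06 to -0.34, adjusted p = 0.13). For miR-26b it was -0.35 (-1.39 to 0.70, adjusted p = 0.75). None of the 4 passed, where 4.43% of 384 assays did. An unadjusted p under 0.05 was found for 3 of them. By p they ranked 26th (miR-26a-1#), 46th (miR-26a) and 56th (miR-26b#) of all 384 assays. By the equal-variance test of each assay alone 1 passed (miR-26a, adjusted p = 0.046), where 28 of all 384 assays did. By the unequal-variance test 0 passed, where 6 of all assays did. MiR-26a-1# passed with the global mean as the reference (2.12, adjusted p = 0.037) and without NTera-2 NC replicate 2 (1.98, adjusted p = 0.010). MiR-26b# passed with RNU44 and RNU48 (-2.19, adjusted p = 0.024). In that order these settings called 15, 26 and 34 of all assays, in place of 17. Other references brought the values nearer to 0, to 0.40 for miR-26a with RNU44 and RNU48 (adjusted p = 0.44), to 0.64 for miR-26a with U6 (adjusted p = 0.26) and to -1.18 for miR-26b# with the global mean (adjusted p = 0.35). With the replicate number as a block 1 of the 384 assays passed in place of 17, and no member. The median of all assays was -0.27 in this contrast. Set against the median of its own card, where any constant of the card cancels, the difference was 1.99 for miR-26a-1#, the 2nd highest of 151 assays on card B, and -1.31 for miR-26b#, the 17th lowest. On card A it was 1.04 for miR-26a, the 29th highest of 233, and -0.16 for miR-26b.

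The difference of a pair of assays on the same card within a sample depends on no reference RNA at all. For the main strands, the log2 level of miR-26a minus that of miR-26b was 2.93, 3.10 and 3.06 in the NC and 1.23, 2.35 and 1.48 in the siSOX2 samples of 2102Ep. It went from 3.03 ± 0.087 (SD, n = 3) to 1.69 ± 0.58, a change of -1.34 with no overlap. The two-sided exact permutation p was 0.1, the smallest that 3 against 3 samples allow. In NTera-2 cells the same difference went from 2.05 ± 0.30 to 1.91 ± 0.15 (exact permutation p = 0.6), and the groups overlapped.

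For the minor strands, miR-26a-1# minus miR-26b# was 3.76, 3.90 and 5.22 in the NC and -0.29, 0.42 and 0.40 in the siSOX2 samples of 2102Ep. The reading of miR-26a-1# was thus far above that of miR-26b# in every NC sample and close to it in every siSOX2 sample. Assays amplify with different efficiency, so close readings do not show equal amounts of the strands. The change was -4.11, from 4.29 ± 0.81 to 0.18 ± 0.41 (exact permutation p = 0.1, no overlap). In NTera-2 cells it went from 2.92 ± 0.35 to 2.10 ± 0.12, a change of -0.81 (exact permutation p = 0.1, no overlap), where the NC values were 2.53, 3.23 and 2.98 and the siSOX2 values 2.24, 2.02 and 2.05. Between the minor strands of both miR-26a loci, miR-26a-1# minus miR-26a-2# went from 3.79 ± 0.55 to 3.05 ± 0.76 in NTera-2 cells, with overlapping groups (exact permutation p = 0.2).

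**Figure D2:**
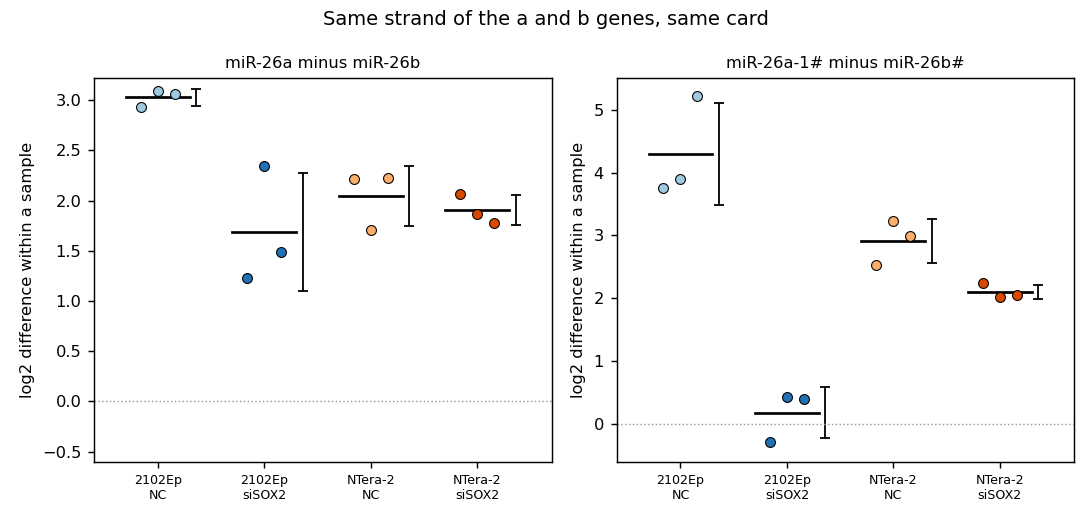
Log2 level of miR-26a minus miR-26b (left) and of miR-26a-1# minus miR-26b# (right) within each of the 12 samples, with bars at the group mean and error bars of 1 SD (n = 3). The siSOX2 samples of 2102Ep lie below all NC samples of that line in both panels, and the right panel spans from 5.22 in an NC sample to -0.29 in a siSOX2 sample.

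Both strands of a hairpin come from 1 precursor, so a minor strand was also set against its partner strand, over all 43 such pairs measured in all 12 samples. The partner miR-26a comes from MIR26A2 as well as MIR26A1, so the pair of miR-26a-1# does not compare strands of 1 precursor alone. The share of MIR26A2 in 2102Ep could not be read, since miR-26a-2# had no value there. In 2102Ep cells miR-26a-1# minus miR-26a was 1.37, 1.65 and 1.67 in NC and 0.17, 0.38 and -0.21 in siSOX2 samples. Every siSOX2 value was below every NC value. Of single assays 32% had groups without overlap in this line, and no such share was counted over the 43 pairs. The change was -1.45 (standard error 0.32, 95% interval -2.15 to -0.75, adjusted p = 0.012 from limma over the 43 pairs), the 4th lowest of 43, where the median of the pairs was 0.16. This pair was among the 5 of 43, or 11.6%, that passed, besides miR-135b# (-1.62), miR-744# (-1.16), miR-191# (1.59) and miR-17# (1.49).

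For the hairpin of miR-26b, the difference of miR-26b# and miR-26b was 0.54, 0.85 and -0.49 in NC and 1.70, 2.30 and 0.88 in siSOX2 samples of 2102Ep. All siSOX2 values were above all NC values, and replicate 3 was the lowest sample in both groups. The change was 1.32 (95% interval 0.37 to 2.28, adjusted p = 0.079 from limma), the 3rd highest of 43. The adjusted p was 0.028 with the replicate number as a block, 0.039 without NC replicate 2 and 0.036 without siSOX2 replicate 3, but 0.26 in the fit on the 6 samples of 2102Ep and 0.29 without NC replicate 3, where the change was 0.93. In NTera-2 cells the changes were -0.70 for miR-26a-1# (unadjusted p = 0.050, adjusted p = 0.72) and -0.03 for miR-26b# (adjusted p = 0.97). With the global mean as the reference they were -0.39 and 0.28, and without NC replicate 2 that of miR-26a-1# was -0.39. In that line 0 of the 43 pairs passed by limma and 3 had an unadjusted p under 0.05. Both miR-26 pairs have their partner strands on different cards, so these differences rest on the constants of both cards. That of card B in 2102Ep was not traced to a reference RNA and was used as deposited. With the global mean of each card in place of the constants the change was -1.52 for miR-26a-1# (adjusted p = 0.012 from limma) and 1.26 for miR-26b# (adjusted p = 0.082) in 2102Ep cells.

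**Figure D3:**
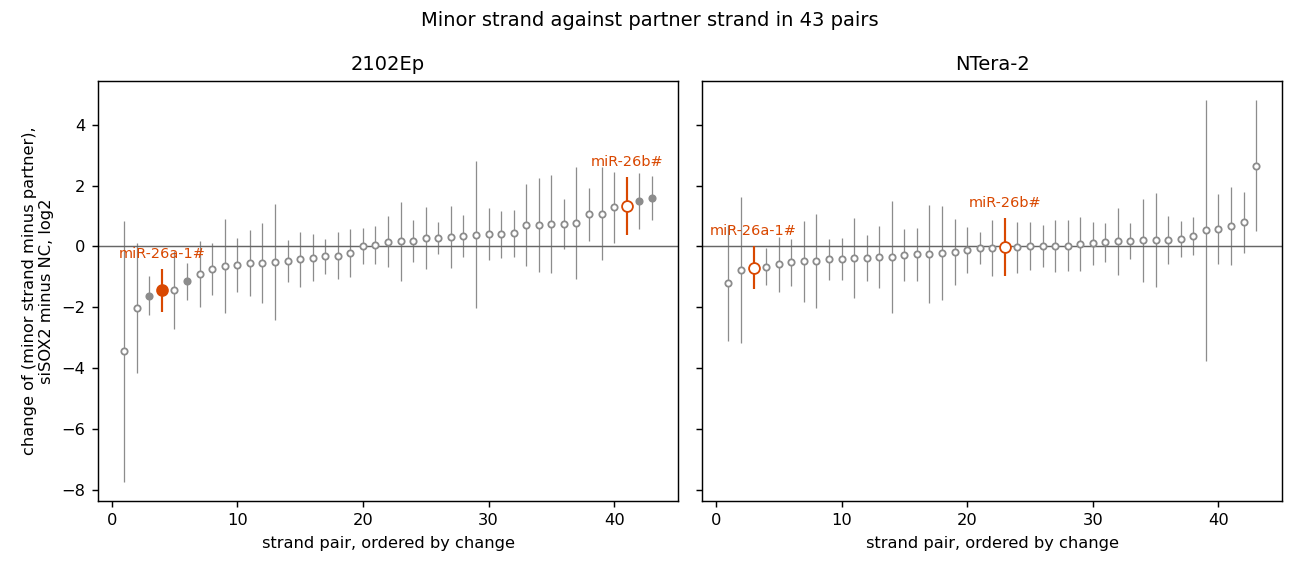
Change of minor strand minus partner strand after siSOX2 (vertical axis, log2) for 43 strand pairs in order of change, in 2102Ep (left) and NTera-2 (right), with 95% intervals from limma over 3 samples per group. Filled circles mark an adjusted p under 0.05. The pair of miR-26a-1# is the 4th lowest and that of miR-26b# the 3rd highest in 2102Ep cells, and in NTera-2 cells they are the 3rd lowest and the 23rd of 43.

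The levels of each member over the 4 groups were set side by side as the log2 distance of its Ct from the mean of its card, taken over the assays measured in all 12 samples. MiR-26a stood highest in NTera-2 siSOX2 (5.52 ± 0.12, SD, n = 3), followed by 2102Ep NC (5.36 ± 0.18) and NTera-2 NC (5.24 ± 0.19), and each of these neighbours overlapped the next. 2102Ep siSOX2 was lowest at 4.60 ± 0.045 and apart from all of them. The fall after siSOX2 thus took miR-26a in 2102Ep below its level in NTera-2 cells on this scale.

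MiR-26a-1# was at 2.10 ± 0.82 in NTera-2 NC and 1.96 ± 0.16 in NTera-2 siSOX2, which overlapped, then at 0.33 ± 0.082 in 2102Ep NC and -1.94 ± 0.36 in 2102Ep siSOX2. The last 2 groups were each apart from their neighbours. MiR-26b# was at -0.14 ± 0.15 in NTera-2 siSOX2 and -0.82 ± 0.55 in NTera-2 NC, which overlapped, and at -2.12 ± 0.53 in 2102Ep siSOX2 and -3.96 ± 0.89 in 2102Ep NC, each apart. MiR-26b was at 3.62 ± 0.12, 3.19 ± 0.44, 2.91 ± 0.57 and 2.33 ± 0.20 in the same order, with each neighbour overlapping the next. MiR-26a-2# was at -1.09 ± 0.71 in NTera-2 siSOX2 and -1.69 ± 0.67 in NTera-2 NC, with overlap.

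**Figure D4:**
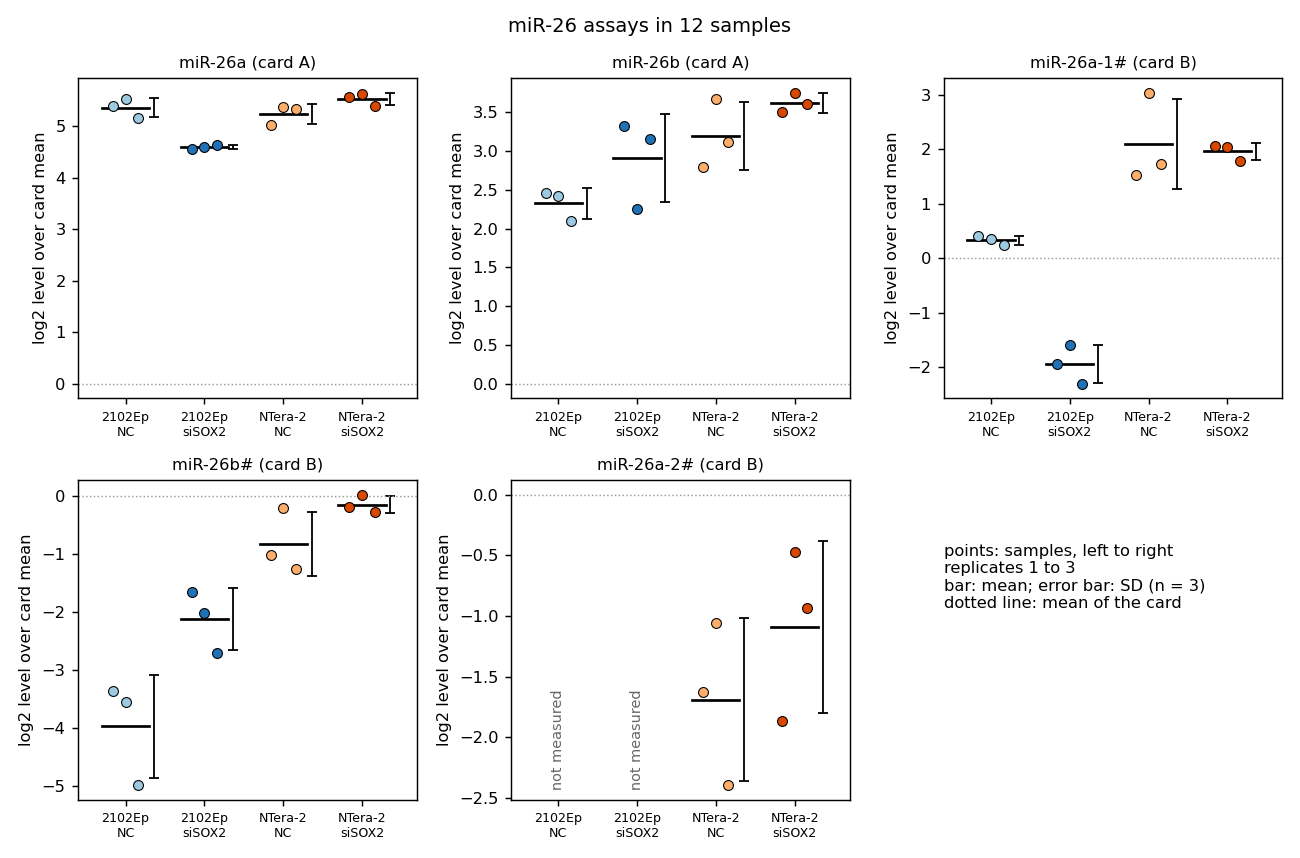
Log2 level over the card mean (vertical axis, its range differing between panels) of the 5 miR-26 assays in each of the 12 samples, with bars at the group mean and error bars of 1 SD (n = 3). MiR-26a-1# and miR-26b# lie lower in both 2102Ep groups than in NTera-2 on this scale, and between 2102Ep NC and 2102Ep siSOX2 they move in opposite directions. The order of the lines turns around with the deposited dCt, whose card B constant was traced to reference RNAs in NTera-2 only.

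Between the NC samples of the lines, 3 of 4 members differed on the card-mean scale, where 72.9% of 384 assays did. NTera-2 was higher by 3.11 for miR-26b# (adjusted p = 0.0015 from limma), by 1.73 for miR-26a-1# (adjusted p = 0.0084) and by 0.89 for miR-26b (adjusted p = 0.031), but with the deposited dCt all of them were lower (-5.20, -6.58 and -2.77), and referred to RNU44 and RNU48 miR-26a-1# (-0.56) and miR-26b (-0.65) were lower. Without any one of the 2102Ep NC samples or without NTera-2 NC replicate 3, the adjusted p of miR-26b was between 0.059 and 0.10. With RNU44 and RNU48 miR-26b# was higher by 0.82 and no longer passed (adjusted p = 0.097). MiR-26a differed by -0.10 on the card-mean scale (95% interval -0.65 to 0.46, adjusted p = 0.71), but by -3.76 with the deposited dCt (adjusted p = 5.4e-06) and by -1.64 with RNU44 and RNU48 (adjusted p = 0.0011), where it passed. With the deposited dCt the median difference of the card B assays was -8.14. The card B constant was traced to U6, RNU48 and miR-16-1# in NTera-2 but not in 2102Ep. The deposited dCt is thus not shown to be a common scale for the lines on card B, in NC or siSOX2 samples. The direction between the lines therefore depends on the reference, which moved the median of all 384 assays from 0.16 with the card mean to -1.68 with RNU44 and RNU48 and to -5.35 with the deposited dCt. The place of a member on its own card does not. Against the card median it was 2.94 for miR-26b#, the 14th highest of 151, 1.56 for miR-26a-1#, the 44th, 0.73 for miR-26b, the 88th of 233, and -0.25 for miR-26a, the 122nd.

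Between the siSOX2 samples of the lines, 3 of 4 members again passed, where 75.5% of all assays did. The difference was 3.97 for miR-26a-1# (adjusted p = 2.8e-05 from limma), 2.04 for miR-26b# (adjusted p = 8.6e-04), 0.92 for miR-26a (adjusted p = 0.0036) and 0.70 for miR-26b (adjusted p = 0.081), and all 4 turned negative with the deposited dCt (-4.98, -6.90, -2.90 and -3.12). Referred to RNU44 and RNU48, miR-26a-1# stayed higher by 0.55 but did not pass (adjusted p = 0.11), and the other 3 turned negative. Against the card median miR-26a-1# stood at 3.93, the 7th highest of 151 assays, and miR-26b# at 2.01, the 38th. Within a sample and card, miR-26a minus miR-26b was 3.03 in 2102Ep NC and 2.05 in NTera-2 NC, without overlap (exact permutation p = 0.1), and 1.69 and 1.91 in the siSOX2 groups, with overlap (exact permutation p = 0.5). The 4 pairs of groups used here share samples with each other and with the knock-down comparisons above.

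The assays whose pattern over the 12 samples was most like that of each member were read from Pearson correlations with 368 other assays on the card-mean scale, given as a description since the points share samples, lines and reference. For miR-26a they were miR-183 (0.89), miR-766 (0.89) and miR-183# (0.86), with its own minor strand miR-26a-1# in 5th place (0.84). For miR-26a-1# they were miR-422a (0.96), miR-1180 (0.96) and a second miR-378 assay (0.94). The likest to miR-26b# were miR-139-5p (0.97), miR-30d (0.96) and miR-1269 (0.96), and to miR-26b they were miR-328 (0.95), miR-30d (0.89) and miR-744 (0.88), with miR-26b# in 5th place (0.86). Between the a and b members, miR-26a and miR-26b correlated by 0.27 and miR-26a and miR-26b# by 0.24. MiR-26a-1# and miR-26b# correlated by 0.54.

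Other miRNAs known to act on EZH2 were looked at beside miR-26, from a list of 10 names of which 6 had an assay. In 2102Ep cells 1 of 5 tested rose and none fell, where 4.64% of all assays rose and 9.51% fell, with a median log2 fold change of 0.37 against -0.0030 for all assays. In NTera-2 cells 1 of 4 tested rose and none fell, where 5.54% of all assays were called, with a median of -0.43 against -0.27. The assay that rose was miR-138, by 1.45 in 2102Ep (adjusted p = 0.0043 from limma) and by 1.26 in NTera-2 cells (adjusted p = 0.025, with 1 NC sample unmeasured). In NTera-2 cells the adjusted p of miR-138 was 0.071 with the replicate number as a block, 0.13 when referred to RNU44 and RNU48 and 0.058 when referred to U6. It was 0.074 and 0.054 without siSOX2 replicate 2 or 3. The equal- and unequal-variance tests of each assay alone called 0 of the 4, where they called 9 and 3 of all 451 assays. In 2102Ep cells miR-138 lost its call by the unequal-variance test (adjusted p = 0.060). MiR-101, a long known regulator of EZH2, changed by 0.37 (adjusted p = 0.44) in 2102Ep and by -0.49 (adjusted p = 0.31) in NTera-2 cells, and miR-124a by -0.18 and -0.98 (adjusted p = 0.76 and 0.072). Let-7b changed by -1.01 in 2102Ep and -0.37 in NTera-2 cells (adjusted p = 0.56 and 0.88), with overlapping groups in both. Let-7c, tested in 2102Ep cells only, changed by 0.83 (adjusted p = 0.70).

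Of 16 names of miRNAs known to be repressed by MYC, as miR-26 is, 14 had an assay. MiR-16, which is on this list, is also part of the card A constant together with U6. Its values (0.03 in 2102Ep and -0.18 in NTera-2 cells) are thus drawn toward 0 by construction, though they are counted below. By limma 0 of 13 tested in NTera-2 cells passed, where 5.54% of all assays did, and 0 of 12 in 2102Ep cells, where 14.2% did. At an unadjusted p under 0.05 the count was 1 in NTera-2 cells (miR-150, -0.76) and 0 in 2102Ep cells. The equal-variance test of each assay alone called 0 in NTera-2 cells and 1 in 2102Ep cells (miR-30c, -0.29, adjusted p = 0.050), and the unequal-variance test called 0 in both. Over all assays these tests called 9 and 3 of 451 in NTera-2 cells and 43 and 8 of 431 in 2102Ep cells. In 2102Ep cells 6 lay above and 6 below 0 with a median of -0.05, and in NTera-2 cells 2 lay above and 11 below with a median of -0.33 against -0.27 for all assays. MiR-22 had the lowest value in 2102Ep (-0.89, adjusted p = 0.45) and miR-15a in NTera-2 cells (-1.24, adjusted p = 0.58), both with wide intervals.

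Of the 84 minor strand assays on the cards, 65 were tested in 2102Ep and 74 in NTera-2 cells. In 2102Ep cells 6 rose and 4 fell, miR-26b# and miR-26a-1# among them, or 5 and 3 with the replicate number as a block. Of all assays 4.64% rose and 9.51% fell without the block, and the median log2 fold change of the minor strands was -0.05. In NTera-2 cells 0 rose and 5 fell, or 2 with the replicate number as a block, where 5.54% of all assays were called, with a median of -0.30, and no miR-26 strand was among them. Of the 65 in 2102Ep cells, miR-432# (-2.49, adjusted p = 0.41, with overlapping groups) had a lower value than miR-26a-1#. The highest was that of miR-9#, the minor strand of a neural miRNA, with 2.26 (adjusted p = 2.6e-04).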

How the data were processed

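TaqMan cards A and B had been run on pre-amplified cDNA from total RNA of 12 samples. The authors deposited raw Ct values, which are on the log2 scale, exported from DataAssist 3.0, and dCt values, also log2, from which they had subtracted a constant per sample and card. Another deposited table holds the authors' own fold changes and p-values and was not used. The constant was the mean Ct of U6 and miR-16 on card A and of U6, RNU48 and miR-16-1# on card B of NTera-2, and on card B of 2102Ep it was taken as deposited. In the raw Ct column of 2102Ep siSOX2 replicate 3, 0.59% of 338 values from row 106 on lay within 0.02 cycles of the constant as placed and 99.7% after a move by 1 measured row, so raw Ct there was dCt plus the constant, and the control RNAs were moved likewise. The card of each RNU44 value was taken from the order of the control rows.

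An assay counted as measured with a dCt and a raw Ct below 40. Minus dCt was tested in R 4.3.3 by limma 3.58.1, with lmFit on 4 group means of all 12 samples and two-sided tests after eBayes, for assays measured in at least 2 of 3 samples per arm, with Benjamini-Hochberg adjustment over all assays of a comparison and calls at 0.05. The lines were compared on raw Ct less the card mean, on the 6 samples of an arm. Strand pairs were tested with limma and differences within a sample with exact permutation tests. The limma step was tested on simulated data. No 2 replicates held identical values.

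Alternatives were other references, filters at a mean Ct of 35 or 32, complete assays only, unmeasured values at Ct 40, tests of each assay alone, other samples in the fit, eBayes with a trend, the replicate number as a block and each sample left out. Same-numbered NC and siSOX2 samples of NTera-2 correlated by 0.12, 0.26 and 0.16 in their deviations from the group means over 445 assays. Those of 2102Ep correlated by 0.16, 0.17 and 0.06 over 412 assays. Blocked values are therefore given in either line where they change a call of a miR-26 assay or the count of a list.

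Named miRNAs were every miR-26 assay, those with its seed, the reference RNAs, members of the EZH2 and MYC lists past the threshold or else with the 2 largest changes, the strand pairs past it and the 3 likest assays of each member. MiR-372, miR-371-3p, miR-101, miR-124a, let-7b, let-7c, miR-150, miR-30c, miR-432# and miR-9# were added after their values were seen. The members and lists were chosen with earlier results of these data known. The number of samples limits the precision, and Ct values after pre-amplification give no count of molecules.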

Additional observations from a re-analysis of the deposited data

How the results depend on the processing

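The changes of miR-26a, miR-26a-1# and miR-26b# in 2102Ep cells kept their direction under all alternatives run. In 2102Ep cells miR-26a was no longer past the threshold with U6 (-0.76), with RNU44 and RNU48 (-0.44) and by the unequal-variance test of each assay alone (-0.79, adjusted p = 0.11), and ranged from -0.88 to -0.70 with 1 sample left out. MiR-26a-1# lost its call by the unequal-variance test alone (-2.24, adjusted p = 0.11). MiR-26b# lost it by the equal- and unequal-variance tests (1.87, adjusted p = 0.17 and 0.21) and in the fit on the 6 samples of 2102Ep (1.87, adjusted p = 0.059), and ranged from 1.38 to 2.18 with 1 sample left out. The count of miR-26 assays called in 2102Ep cells was 0 with U6, where card B could not be fitted and 41 of 264 assays were called. By the unequal-variance test it was 0, where that test called 8 of all 431 assays. It was between 1 and 3 with 1 sample left out, where 41 to 57 of all assays were called. Other settings called between 2 and 3, and 43 to 63 of all assays. MiR-26b was called in none and ranged from 0.31 to 0.85 with 1 sample left out.

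In NTera-2 cells no alternative called a miR-26 assay, where the alternatives called 3 to 25 of all assays. The sign turned for miR-26a with U6 (-0.13) and with RNU44 and RNU48 (-0.047). With 1 sample left out miR-26a ranged from -0.10 to 0.14, miR-26a-1# from -0.89 to -0.26, miR-26a-2# from -0.21 to 0.48, miR-26b# from -0.0016 to 0.40 and miR-26b from -0.044 to 0.44. The difference between the lines was called for 1 miR-26 assay with RNU44 and RNU48, where 34 of all 384 assays were called, in place of 17. Either global reference also called 1, where 15 (mean) and 18 (median) of all assays were called. The equal-variance test called 1, where it called 28 of all assays. With 1 sample left out the count was 0 to 1, where 4 to 26 of all assays were called.

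For the strand pairs of 2102Ep, miR-26a-1# lost its call in the fit on 6 samples (-1.45, adjusted p = 0.067), and miR-26b# gained one with the replicate number as a block (1.32, adjusted p = 0.028), had an adjusted p of 0.26 in the fit on 6 samples and ranged from 0.93 to 1.70 with 1 sample left out. In NTera-2 cells the pair of miR-26b# turned to 0.28 and 0.46 against the global mean and median and to 0.16 on raw Ct, with a range of -0.20 to 0.16 with 1 sample left out, and miR-26a-2# minus miR-26a ranged from -0.35 to 0.36.

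Between the lines, the NC difference of miR-26a was -3.76 with the deposited dCt and -1.64 with RNU44 and RNU48, past the threshold in both, 0.41 with the global median and between -0.20 and 0.010 with 1 sample left out. With the deposited dCt the NC differences were -6.58 for miR-26a-1#, -5.20 for miR-26b# and -2.77 for miR-26b, and those of the siSOX2 samples -2.90, -4.98, -6.90 and -3.12 for miR-26a, miR-26a-1#, miR-26b# and miR-26b. With RNU44 and RNU48 they were -0.56 for miR-26a-1#, -0.65 for miR-26b and 0.82 for miR-26b# (call lost) in NC, and -1.24, -1.37, -1.46 and 0.55 (call lost) for miR-26a, miR-26b#, miR-26b and miR-26a-1# in siSOX2 samples. Of the NC differences 1 was called with RNU44 and RNU48 and 1 by the unequal-variance test, where 282 and 217 of all 384 assays were called. The values with the deposited dCt and with RNU44 and RNU48 differ from the card-mean values only by the constant subtracted per sample and card. Why these constants differ between the lines was not tested.

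The block of the replicate number changed no other call of a miR-26 assay, and over all assays tested it called 48, in place of 61, in 2102Ep cells and 7, in place of 25, in NTera-2 cells, and 1, in place of 17, for the difference between the lines. Same-numbered NC and siSOX2 samples of 2102Ep correlated by 0.16, 0.17 and 0.06 in their deviations. The difference between the lines was not run on 6 samples, since it needs all 12. With 3 samples a group, and weak assays such as miR-26b# near a Ct of 28.6 in 1 sample, precision is limited.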
